A study of Ovis aries with 15 samples.

Results

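The liver of fetal sheep (Ovis aries) was compared between gestational days (GD) 124 and 100, using the 5 libraries titled GD124 and the 4 titled GD100, 9 of the 15 libraries of a series that also holds 6 libraries of GD144. The groups differ by stage alone as far as the labels go: all are pieces of fetal liver, no treatment, genotype or breed is named, and the days of gestation are the only age given. Poly(A) RNA was sequenced from total RNA of the whole tissue, and the unit deposited is the estimated number of reads per gene. Whether each library is a different fetus is not stated in the labels, and p-values then reflect only how much these libraries vary, which may be technical. The sample codes of GD100, GD124 and GD144 differ in their prefix, so collection and stage cannot be told apart. Changes are described by function, leaving aside globins, cell cycle genes, plasma proteins and the 2 genes of glucose release, G6PC1 and PCK1.

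The fetal liver makes blood as well as bile and plasma. Blood-forming cells fill much of the organ in mid gestation and move to the bone marrow later. Hepatocytes meanwhile enlarge, take on secretion, and build the enzymes and transporters that the newborn needs when the placenta no longer supplies glucose and amino acids. In tissue RNA both happen at once, so fewer cells of a type and less RNA per cell cannot be told apart.

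The 9 libraries held 24215612 to 33769804 counts, and 3 counts, taken as the floor of detection, equal 0.0948 to 0.128 CPM (counts relative to the total of the library, after scaling by trimmed means of M values, TMM), which covers counting error only. GD100 replicates 2 to 4 carried fractional counts at 10.58 to 10.81% of genes, against 6.05% in GD100 replicate 1 and 5.09 to 5.46% at GD124. In these 3 libraries 156 genes stood over 3 times above the other 12 libraries, and 122 of them (78.2%, against 41.3% of all genes above 1 CPM) overlap another gene in the annotation. Another 5 genes stood over 3 times below, and all 5 overlap another gene. Genes that overlap another gene are marked † below, since the counts of overlapping genes may be split between them. Counts or the median log2 change of most lists described are therefore given also for a fit with GD100 replicate 1 as the sole library of its stage. The spread of that fit is taken from the other stages. A called gene that this fit does not call is marked ‡.

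All 10 genes that define hepatocytes (among them ALB, APOB and TF) were present in every library group, with no member at 0. Their summed level was 105457, 58146, 69432 and 175062 at GD100 and 227243, 236912, 258352, 248429 and 220953 at GD124 (CPM). All 27 erythroid markers in the table were also present at both stages, with sums of 9353, 19222, 15249 and 7726 at GD100 and 3701, 3752, 3438, 3113 and 6295 at GD124 CPM. GD100 replicates 2 and 3 therefore hold the highest erythroid and the lowest hepatocyte levels of the 9 libraries, and GD124 replicate 5 has the highest erythroid level of its stage. The 21 platelet markers summed to 427, 411, 427 and 379 at GD100 and 169.5, 213, 208, 131 and 206 at GD124 CPM, and the stages do not overlap. These levels move with stage beside every gene group below, and their part in those results was not tested. Counts without GD100 replicates 2 and 3 are given for that reason.

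Of 16977 genes tested with the quasi-likelihood test of edgeR, 34% were called at an adjusted p under 0.05, 2825 higher at GD124 (16.6%) and 2949 lower (17.4%). The median log2 change over all tested genes was 0.015 with TMM. Scaling by total counts alone moved that median to -0.164 and the split to 1805 higher and 4055 lower, so small changes of either sign depend on the scaling. Among all genes, 11.6% had every GD124 library above every GD100 library and 12.6% had every one below. Changes of over 2-fold numbered 1016 upward and 1401 downward, and changes of over 4-fold 176 and 337. The genes called lower include 91 of the 156 that stood high in GD100 replicates 2 to 4. Of the 5 that stood low there, 4 were called. These genes were not taken out of the counts above. Protein-coding genes were called in 35.4% of cases and long non-coding RNAs in 22.4%.

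With GD100 replicate 1 alone, 17% of 18580 genes were called, 8.48% higher and 8.57% lower. Of these, 2150 were also called, in the same direction, by the fit of all libraries, and 2 were called in opposite directions. Among genes called higher by the fit of all libraries, 89% had GD100 replicate 1 below all 5 GD124 libraries. The corresponding share of genes called lower was 83.6%. Without GD100 replicates 2 and 3, 14.2% of 17597 genes were called, 7.14% higher and 7.03% lower.

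**Figure D1:**
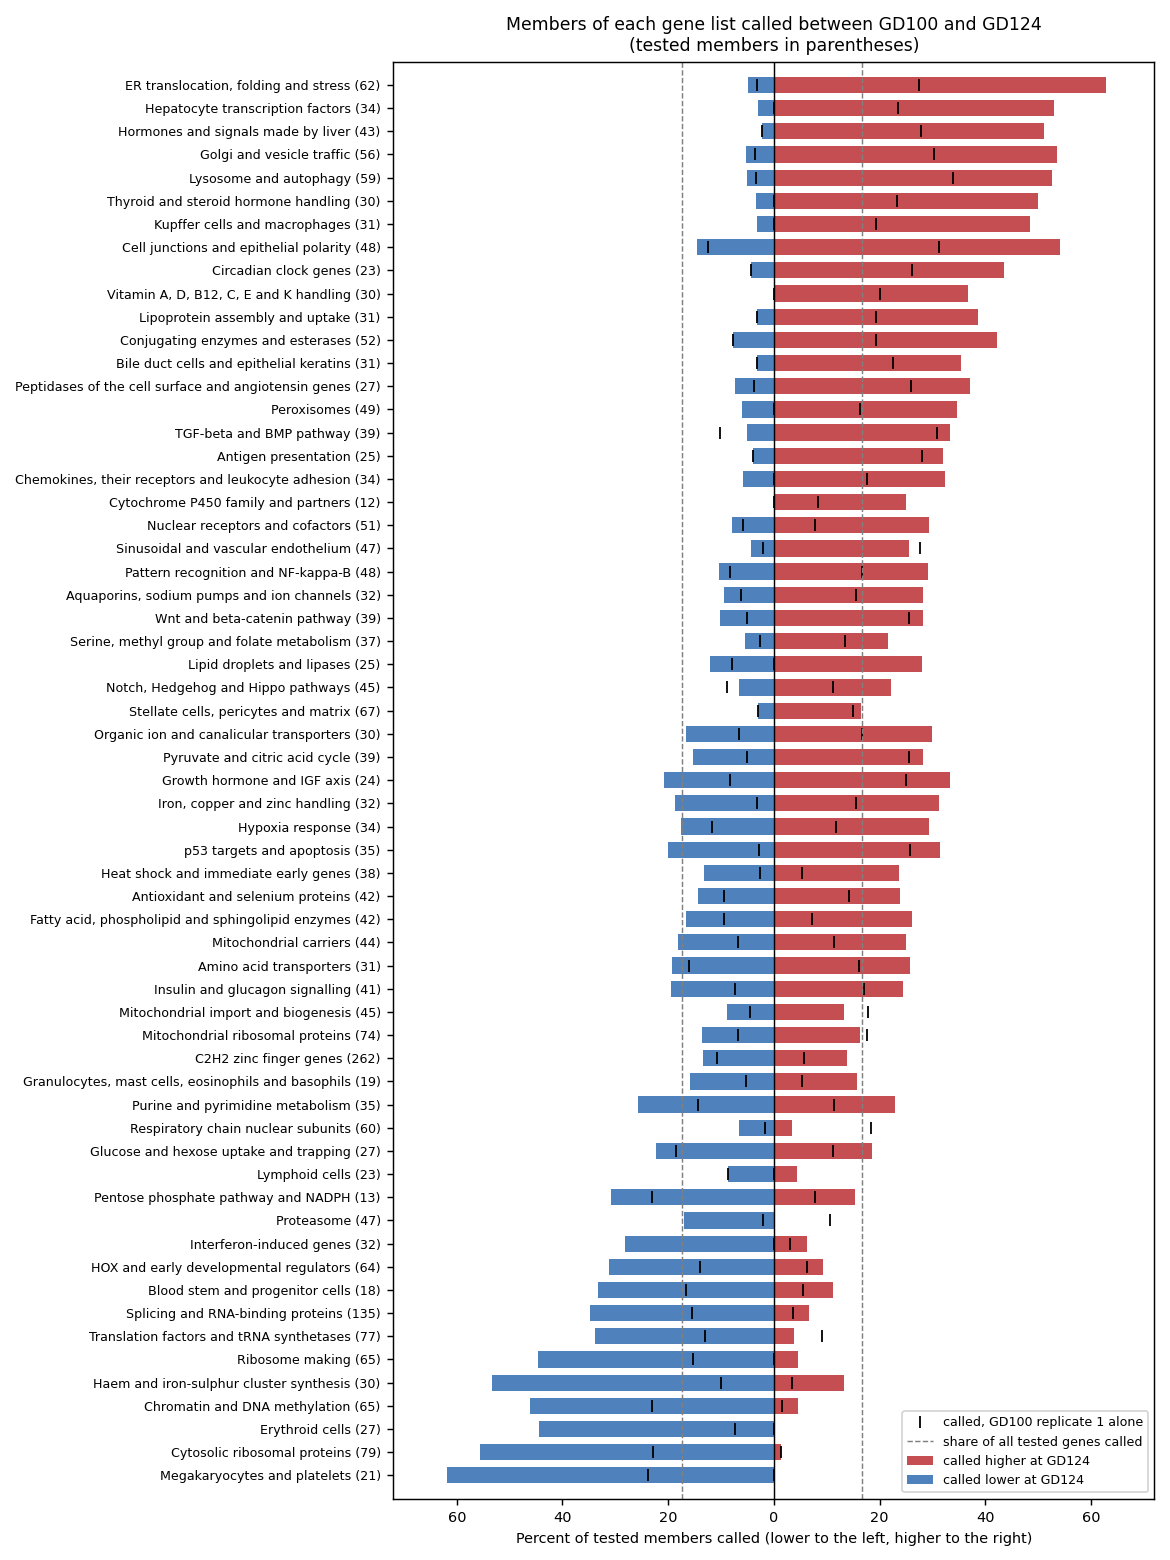
Percent of the tested members of each gene list that were called higher (red, to the right) or lower (blue, to the left) at GD124, with the number tested in parentheses. Black ticks give the percent called when GD100 replicate 1 is the sole GD100 library. Dashed lines give the 16.6% and 17.4% of all tested genes called higher and lower in the fit of all libraries. They apply to the bars and not to the ticks, whose fit called a smaller share of all genes. Lists of the secretory pathway stand at the top and lists of blood cells, ribosomes and chromatin at the bottom.

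In the fit of all libraries, the machinery that folds and exports secreted proteins had the largest share of members called higher among the functional lists drawn. That lead did not hold without GD100 replicates 2 and 3, where several lists had a larger share. Among them were thyroid and steroid hormone handling, the growth hormone and IGF axis, and lysosome and autophagy. The list of endoplasmic reticulum (ER) translocation, folding and stress genes had 39 members up and 3 down of 62 tested, with a median log2 change of 0.63 (17 up and 2 down with GD100 replicate 1 alone, 14 up and 1 down without GD100 replicates 2 and 3). P4HB, a disulfide isomerase of the ER, stood at 605, 438, 522 and 942 CPM at GD100 and 1253, 1283, 1288, 1256 and 1022 CPM at GD124. Every GD124 library lay above every GD100 library (log2 change 0.96 ± 0.20, edgeR adjusted p = 0.0019, and 1.01 with GD100 replicate 1 alone). A second isomerase that folds glycoproteins, PDIA3†, rose from 226 ± 85.7 to 481 ± 92.5 CPM (log2 change 1.09 ± 0.22, edgeR adjusted p = 0.0016). Means here and below are given ± SD over 4 GD100 and 5 GD124 libraries, and log2 changes ± SE. HERPUD1‡, a component of ER-associated degradation, rose by a log2 change of 1.02, and XBP1, a transcription factor that drives the secretory programme, by 0.76.

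The chaperones of the ER stress response behaved less uniformly across the GD100 libraries. HSPA5, the main ER chaperone, stood at 498, 275, 236 and 471 CPM at GD100 and 678, 588, 681, 626 and 397 CPM at GD124. Its GD124 replicate 5 lay below GD100 replicates 1 and 4, and the difference missed the threshold (log2 change 0.68 ± 0.26, edgeR adjusted p = 0.054). HSP90B1‡ and PDIA4‡ were called higher, with log2 changes of 0.69 and 0.70 that shrank to 0.32 and 0.39 with GD100 replicate 1 alone. Among the members that fell were ATF4†, the transcription factor of the integrated stress response (-0.37), and SDF2L1‡, an ER stress-induced chaperone partner (-0.68). The call of ATF4 was lost in 10 of 19 alternatives, and those of SDF2L1 and PDIA4 each in 10 of 20.

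Vesicle traffic between the ER and the Golgi changed the same way, with 30 of 56 members higher and 3 lower (median 0.44; 17 up and 2 down with GD100 replicate 1 alone, 14 up and 1 down without GD100 replicates 2 and 3). TMED10, a cargo receptor of the early secretory pathway, stood at 155, 136, 139.6 and 226 CPM at GD100 and 329, 354, 329, 351 and 254 CPM at GD124. The stages do not overlap (log2 change 0.98 ± 0.16, edgeR adjusted p = 0.00048). Its partner TMED2 rose from 128 ± 27.0 to 233 ± 30.9 CPM, and LMAN1, which carries coagulation factors out of the ER, from 134 ± 30.4 to 228 ± 18.6 CPM (log2 change 0.76 ± 0.16, edgeR adjusted p = 0.0021). The exception was YIF1B, a membrane protein of the same route, at 49.6, 89.9, 92.2 and 41.2 CPM at GD100 and 18.9, 18.1, 15.8, 19.3 and 23.3 CPM at GD124. It was lower in every GD124 library (log2 change -1.84 ± 0.22, edgeR adjusted p = 0.0001), and its 2 highest values belong to GD100 replicates 2 and 3. Among genes whose symbol begins with SEC, a family that includes coat and translocon subunits, 14 of 27 rose and 2 fell, but with GD100 replicate 1 alone 4 rose and 3 fell.

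**Figure D2:**
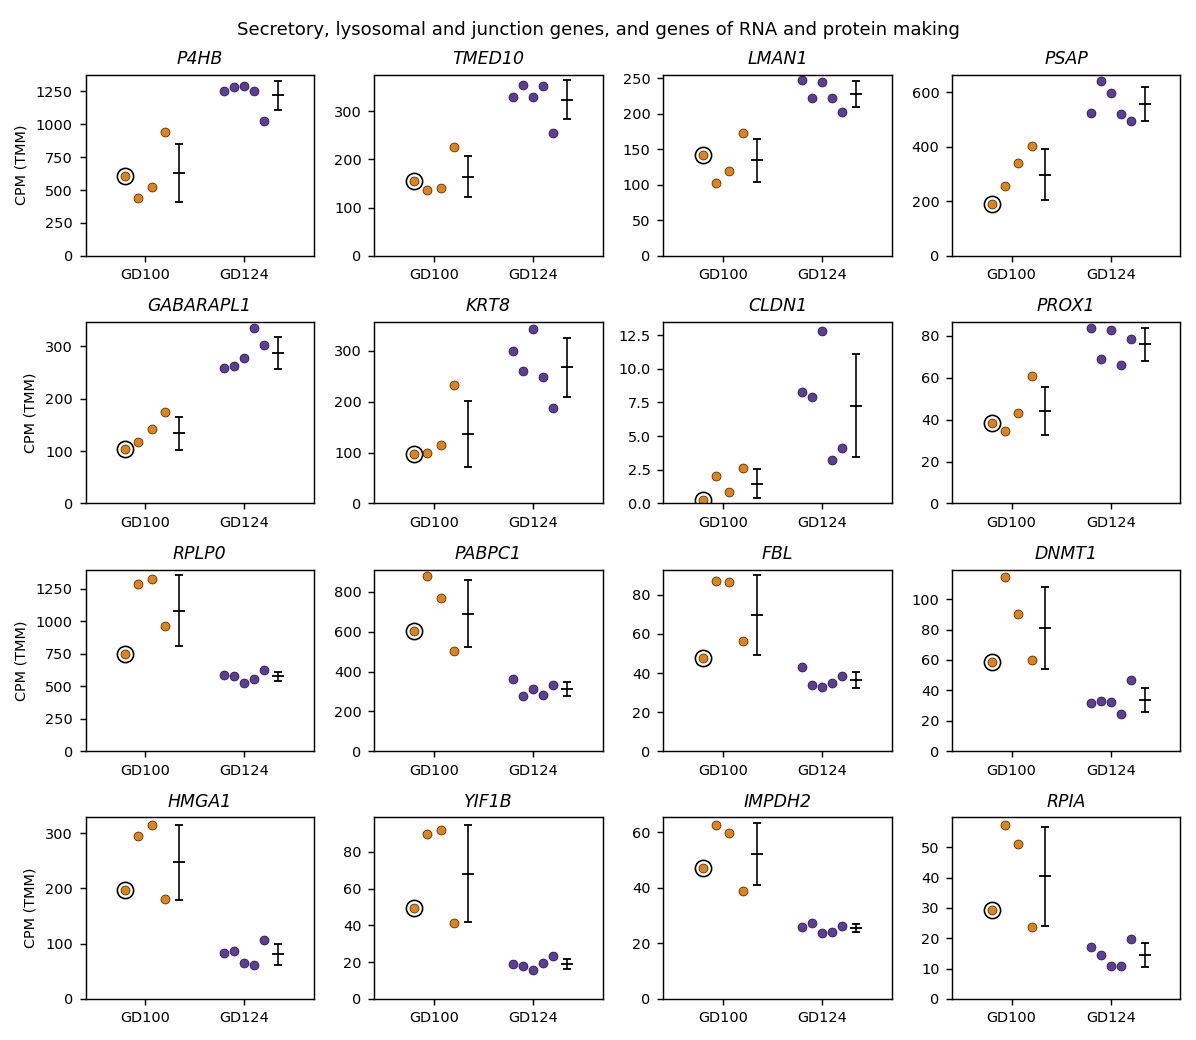
CPM of 16 genes in each GD100 (orange) and GD124 (purple) library, with the mean and SD as a black bar beside each group and GD100 replicate 1 circled. P4HB, TMED10, LMAN1, PSAP and GABARAPL1 are higher in all GD124 libraries, and RPLP0, PABPC1, FBL, DNMT1, HMGA1, YIF1B, IMPDH2 and RPIA are lower in all of them.

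Lysosomal genes rose more often than they fell. Of 59 tested members of the lysosome and autophagy list 31 were higher and 3 lower (median 0.48; 20 up and 2 down with GD100 replicate 1 alone, 17 up and 2 down without GD100 replicates 2 and 3). PSAP encodes the precursor of the saposins, which help degrade sphingolipids, and stood at 191, 257, 340.0 and 402 CPM at GD100 and 522, 642, 598, 521 and 495 CPM at GD124. GD100 replicate 1 was the lowest library (log2 change 0.90 ± 0.19, edgeR adjusted p = 0.0021, 1.54 with GD100 replicate 1 alone). GABARAPL1, a ubiquitin-like protein of the autophagosome membrane, stood at 103, 118, 141 and 174 CPM at GD100 and 259, 263, 278, 334 and 302 CPM at GD124. No GD124 library reached down to the GD100 range (log2 change 1.10 ± 0.17, edgeR adjusted p = 0.00038). LIPA‡, the acid lipase that releases cholesterol from endocytosed lipoproteins, rose from 112 ± 54.4 to 211 ± 25.7 CPM, and LAMP1, a major lysosomal membrane protein, from 136 ± 33.7 to 184 ± 12.97 CPM. The call of LAMP1 (edgeR adjusted p = 0.038) was lost in 13 of 20 alternatives. The members that fell act at the start of autophagy: ULK1‡ (log2 change -0.58), the initiating kinase, WIPI1 (-0.96), which binds the forming membrane, and ATG16L1† (-0.64).

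Peroxisomes, which shorten very long fatty acids and degrade hydrogen peroxide, had 17 of 49 members higher and 3 lower (median 0.43; 8 up and 0 down with GD100 replicate 1 alone, 7 up and 0 down without GD100 replicates 2 and 3). EHHADH‡ and ACAA1‡, enzymes of peroxisomal beta-oxidation, rose by log2 changes of 1.06 and 0.75, and CAT‡, catalase, by 0.88. With GD100 replicate 1 alone CAT changed by 0.63 (edgeR adjusted p = 0.34).

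Genes that make the protein-synthesis machinery leaned the other way. Of 79 cytosolic ribosomal protein genes 44 fell and 1 rose (median -0.48; 1 up and 18 down with GD100 replicate 1 alone, 0 up and 23 down without GD100 replicates 2 and 3). RPLP0‡, of the ribosomal stalk, stood at 752, 1285, 1328 and 967 CPM at GD100 and 587, 579, 525, 558 and 628 CPM at GD124. All GD124 libraries were lower (log2 change -0.91 ± 0.16, edgeR adjusted p = 0.0008), while GD100 replicate 1 was the GD100 library nearest to them (-0.39 alone, edgeR adjusted p = 0.13). RPL4† fell from 1223 ± 325 to 729.9 ± 65.7 CPM, with -1.23 for GD100 replicate 1 alone. The 1 member that rose was RPS27, from 143 ± 28.6 to 203 ± 21.5 CPM (log2 change 0.51 ± 0.16, edgeR adjusted p = 0.024). Ribosomal protein genes have many near-identical pseudogenes, among which reads can be shared, so single members are uncertain. The erythroid sums given above are highest in GD100 replicates 2 and 3, where RPLP0 is also highest. Without those 2 libraries 23 members fell and 0 rose. GD100 replicates 1 and 4 also have erythroid sums (9353 and 7726 CPM) above all of GD124 (3113 to 6295 CPM). The part of erythroid content in these falls was not tested.

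Ribosome assembly and translation followed the same direction. In the list of ribosome-making factors 29 of 65 fell and 3 rose (0 up and 10 down with GD100 replicate 1 alone, 0 up and 10 down without GD100 replicates 2 and 3). NOP56†, a core protein of the small nucleolar complexes that methylate ribosomal RNA, stood at 197, 119, 134 and 108 CPM at GD100 and 79.4, 56.4, 63.3, 82.3 and 63.7 CPM at GD124. The lowest GD100 library still exceeded the highest GD124 library (log2 change -1.01 ± 0.18, edgeR adjusted p = 0.00084). FBL‡, the methyltransferase of those complexes, stood at 47.8, 87.1, 86.8 and 56.6 CPM at GD100 and 43.0, 33.7, 32.8, 34.7 and 38.4 CPM at GD124. GD100 replicate 1 lay only just above the GD124 range (log2 change -0.93 ± 0.17, edgeR adjusted p = 0.001, -0.39 alone). Among translation factors and tRNA synthetases 26 of 77 fell and 3 rose (7 up and 10 down with GD100 replicate 1 alone, 2 up and 10 down without GD100 replicates 2 and 3).

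PABPC1, the cytoplasmic poly(A)-binding protein, stood at 605, 881, 770.4 and 503 CPM at GD100 and 361, 279, 313, 283 and 331 CPM at GD124. Each GD124 value was below each GD100 value (log2 change -1.14 ± 0.18, edgeR adjusted p = 0.00035, -0.95 with GD100 replicate 1 alone). EIF2AK1†, a kinase that halts translation in red cell precursors when haem is short, stood at 218, 261, 239 and 150.0 CPM at GD100 and 67.8, 78.7, 82.8, 73.1 and 118 CPM at GD124. GD124 replicate 5 was the highest of its stage (log2 change -1.37 ± 0.19, edgeR adjusted p = 0.0002), as it is for the erythroid sum. EIF5A‡ fell from 547 ± 48.5 to 326 ± 23.04 CPM.

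Among nuclear genes of RNA processing and chromatin, more fell than rose. Of 135 splicing and RNA-binding genes 47 fell and 9 rose (median -0.24; 5 up and 21 down with GD100 replicate 1 alone, 4 up and 16 down without GD100 replicates 2 and 3). The fallers included SRSF2‡ (log2 change -0.59) and HNRNPA2B1†‡ (-0.48), while QKI (0.41), a regulator of splicing and RNA stability, rose. The symbol families that follow are some of those counted, and over all tested genes 17.4% were called lower and 16.6% higher. By symbol family, 13 of 23 NUP genes, which build the nuclear pore, fell and 1 rose, and with GD100 replicate 1 alone 8 fell and 3 rose. Among CEP genes, which encode centrosomal proteins, 16 of 39 fell and 0 rose (5 and 0 with GD100 replicate 1 alone). Of 31 POLR genes, subunits of the RNA polymerases, 12 fell and 2 rose (5 and 0 alone).

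In the chromatin and DNA methylation list 30 of 65 members fell and 3 rose (median -0.41; 1 up and 15 down with GD100 replicate 1 alone, 1 up and 11 down without GD100 replicates 2 and 3). DNMT1‡, which copies DNA methylation at replication, stood at 58.4, 115, 90.4 and 59.9 CPM at GD100 and 31.5, 32.7, 32.6, 24.6 and 46.5 CPM at GD124. The stages do not overlap (log2 change -1.27 ± 0.23, edgeR adjusted p = 0.00088), and GD124 replicate 5, with the most erythroid RNA of its stage, was the GD124 library closest to GD100. EZH2‡, the histone methyltransferase of Polycomb, fell from 87.5 ± 31.0 to 31.0 ± 9.39 CPM (log2 change -1.50 ± 0.39, edgeR adjusted p = 0.0086), with -1.14 and an adjusted p of 0.22 for GD100 replicate 1 alone. TRIM28, a corepressor, fell with a log2 change of -0.91, and -0.48 with GD100 replicate 1 alone. SMARCA2‡, an ATPase of chromatin remodelling, was among the 3 that rose (0.70). The cell cycle list summed to 8057, 14562, 11967 and 7017 at GD100 and 4041, 4275, 3705, 3111 and 5817 at GD124 CPM, and its part in these falls was not tested.

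**Figure D3:**
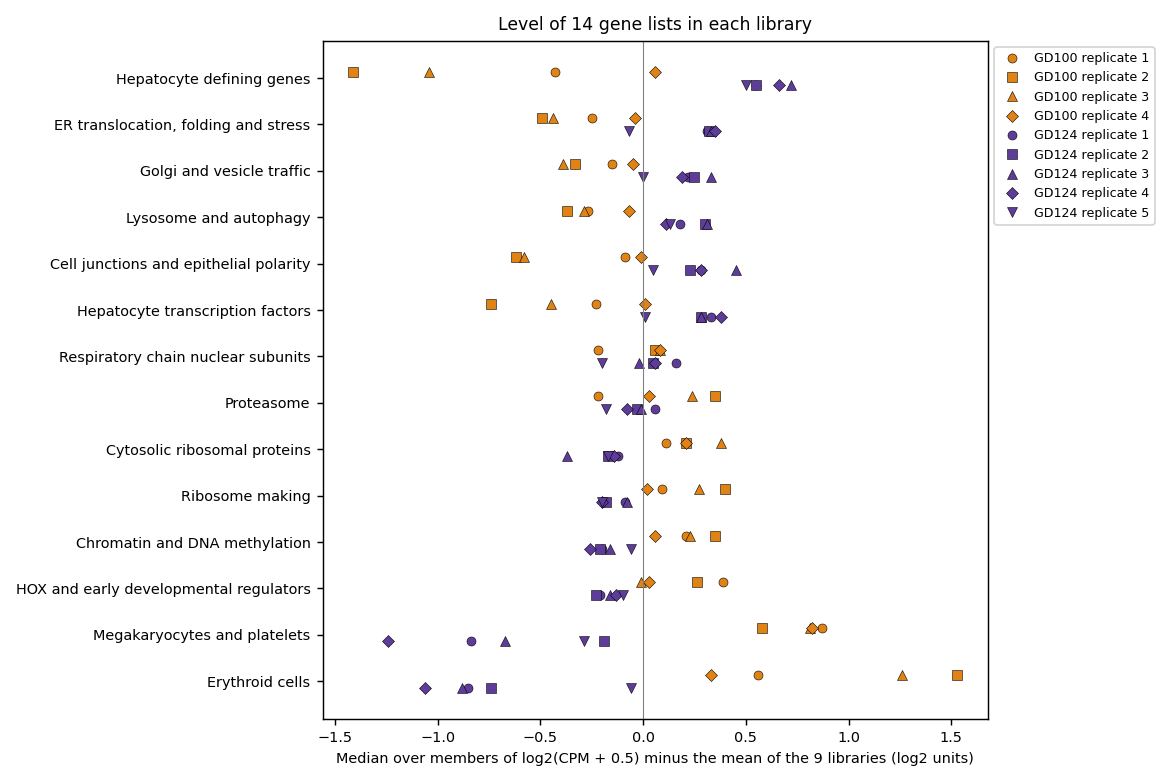
Level of 14 gene lists in each library, as the median over tested members of log2(CPM + 0.5) minus the mean of the 9 libraries. Orange marks GD100 and purple GD124, and each symbol is 1 replicate number. The stages are separate for the Golgi, lysosome, junction, ribosome and chromatin lists, and they overlap for the ER, hepatocyte transcription factor, respiratory chain and proteasome lists.

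Glucose carriers moved both ways. SLC2A2, the bidirectional glucose transporter of mature hepatocytes, stood at 81.9, 39.3, 63.8 and 105 CPM at GD100 and 268, 369, 330.0, 348 and 273 CPM at GD124. The lowest GD124 library exceeded the highest GD100 library (log2 change 2.13 ± 0.25, edgeR adjusted p = 9.2e-05). SLC2A1†, the high-affinity carrier of red cells and many fetal tissues, stood at 521, 1042, 823 and 510.3 CPM at GD100 and 172, 129.5, 174, 149 and 294 CPM at GD124. It was lower in every GD124 library (log2 change -1.98 ± 0.25, edgeR adjusted p = 0.00014, -1.51 with GD100 replicate 1 alone), and GD100 replicates 2 and 3 and GD124 replicate 5 are the highest of their stages, as they are for the erythroid sums. HK1†‡, the hexokinase of red cells and many tissues, stood at 73.8, 178, 132 and 75.4 CPM at GD100 and 40.5, 32.2, 33.5, 31.2 and 55.1 CPM at GD124 (log2 change -1.58 ± 0.29, edgeR adjusted p = 0.001). The glucokinase gene was not tested, and KHK†, fructokinase, stayed between 0.256 and 1.11 CPM in the 9 libraries. GYS2, the glycogen synthase of liver, stood at 36.2, 22.4, 31.2 and 77.6 CPM at GD100 and 196, 198, 235, 278 and 236 CPM at GD124 and was higher in all GD124 libraries (log2 change 2.45 ± 0.32, edgeR adjusted p = 0.00014). PDK4‡, which holds pyruvate back from oxidation, rose from 9.24 ± 2.37 to 28.5 ± 5.28 CPM.

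In the list of pyruvate and citric acid cycle enzymes 11 of 39 rose and 6 fell (median 0.32; 10 up and 2 down with GD100 replicate 1 alone, 8 up and 1 down without GD100 replicates 2 and 3). Their summed level was 2027, 2283, 2269 and 2321 at GD100 and 2961, 2762, 2938, 2722 and 2464 at GD124 CPM, and every GD124 library lay above every GD100 library. SUCLG2†‡, a subunit of succinyl-CoA ligase, rose by a log2 change of 0.84, while CS†, citrate synthase, changed by -0.69. The respiratory chain shows how far a list can rest on 1 library. Of 60 nuclear subunit genes 2 rose and 4 fell in the fit of all libraries, but 11 rose and 1 fell with GD100 replicate 1 alone, and 2 and 0 without GD100 replicates 2 and 3. Their summed level was 3240, 3984, 4079 and 3944 at GD100 and 4238, 3857, 3924, 4039 and 3367 at GD124 CPM. GD100 replicate 1 is the lowest of the 9 libraries, and the other GD100 libraries lie within the GD124 range. NDUFV1‡, of complex I, was called lower (-0.68), and SDHD†‡, of complex II, higher (0.73). The proteasome list had 0 of 47 up and 8 down, the latter near the 17.4% of all tested genes called lower. Without GD100 replicates 2 and 3 it had 2 up and 1 down. Its median log2 change was -0.18 in the fit of all libraries, and 0.19 with GD100 replicate 1 alone.

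In the pentose phosphate pathway, which supplies NADPH and ribose, 4 of 13 members fell and 2 rose (1 up and 3 down with GD100 replicate 1 alone, 1 up and 2 down without GD100 replicates 2 and 3). RPIA, which makes ribose 5-phosphate, stood at 29.3, 57.6, 51.1 and 23.8 CPM at GD100 and 17.2, 14.4, 10.7, 10.8 and 19.8 CPM at GD124. The stages are apart (log2 change -1.47 ± 0.26, edgeR adjusted p = 0.00076, -1.01 with GD100 replicate 1 alone). H6PD‡, which makes NADPH inside the ER, rose from 122 ± 47.4 to 246 ± 52.5 CPM. The purine enzymes that make guanine nucleotides from inosinate fell: IMPDH2 stood at 47.1, 62.7, 59.9 and 38.7 CPM at GD100 and 25.8, 27.3, 23.8, 24.2 and 26.2 CPM at GD124 (log2 change -1.03 ± 0.17, edgeR adjusted p = 0.00047), and IMPDH1† went from 54.8 ± 22.9 to 16.9 ± 3.50 CPM. Enzymes of pyrimidine breakdown rose, among them DPYS (1.20), DPYD†‡ (0.92) and UPB1†‡ (0.81). The whole purine and pyrimidine list had 8 up and 9 down of 35 (4 up and 5 down with GD100 replicate 1 alone, 3 up and 6 down without GD100 replicates 2 and 3), and which of these counts was larger changed with the setting.

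Fatty acid and lipid genes moved in both directions. Of 42 fatty acid, phospholipid and sphingolipid enzymes 11 rose and 7 fell, against 16.6% and 17.4% of all tested genes. Without GD100 replicates 2 and 3 there were 4 up and 4 down, and under total-count scaling 7 up and 9 down. Their median log2 change was 0.1, and 0.14 with GD100 replicate 1 alone. Called members of this list named here all fell, and its rises are not named. ELOVL1, an elongase of very long fatty acids, stood at 57.9, 99.4, 80.8 and 49.4 CPM at GD100 and 27.7, 28.4, 28.3, 26.2 and 33.3 CPM at GD124. The GD124 libraries were low and close together (log2 change -1.32 ± 0.17, edgeR adjusted p = 0.00015). LPCAT3, which places polyunsaturated chains in phospholipids, stood at 59.4, 68.5, 78.4 and 48.0 CPM at GD100 and 26.2, 29.9, 21.2, 24.8 and 32.7 CPM at GD124 (log2 change -1.24 ± 0.17, edgeR adjusted p = 0.00017). FASN‡, fatty acid synthase, fell from 118 ± 15.4 to 64.2 ± 17.7 CPM (edgeR adjusted p = 0.038, a call lost in 10 of 20 alternatives), whereas SCD, stearoyl-CoA desaturase, stood at 6.25, 71.4, 17.2 and 7.24 CPM at GD100 and 22.8, 11.1, 17.3, 5.19 and 14.2 CPM at GD124. Its GD100 replicate 2 lay far above the others, and the test found no difference (log2 change -0.85 ± 0.62, edgeR adjusted p = 0.31). ABCG1†, a cholesterol exporter, fell from 67.1 ± 30.9 to 16.5 ± 6.85 CPM (log2 change -2.02 ± 0.36, edgeR adjusted p = 0.00092). Of 31 lipoprotein genes 12 rose and 1 fell (6 up and 1 down with GD100 replicate 1 alone, 5 up and 1 down without GD100 replicates 2 and 3), among the rises APOB‡ (log2 change 0.88), the core protein of secreted lipoproteins.

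Amino acid transporters moved in both directions. SLC7A2, which imports cationic amino acids in liver, stood at 91.7, 65.3, 99.7 and 124 CPM at GD100 and 293, 261, 280.1, 320.0 and 334 CPM at GD124. Every GD124 library was above every GD100 library (log2 change 1.65 ± 0.21, edgeR adjusted p = 0.00014). SLC38A4†, a carrier of neutral amino acids that is enriched in liver, stood at 198, 85.4, 144 and 242 CPM at GD100 and 402, 522, 381, 549 and 412 CPM at GD124 and was likewise higher throughout (log2 change 1.44 ± 0.25, edgeR adjusted p = 0.00072). SLC7A5‡, the large neutral amino acid exchanger of growing cells, stood at 106, 231, 177 and 73.9 CPM at GD100 and 34.1, 36.4, 32.4, 30.5 and 61.0 CPM at GD124 (log2 change -1.92 ± 0.41, edgeR adjusted p = 0.003). GD100 replicates 1 and 4 were the lower GD100 libraries, and with replicate 1 alone the log2 change was -1.45 (edgeR adjusted p = 0.11). SLC1A5, a glutamine importer, stood at 35.1, 90.3, 73.5 and 37.6 CPM at GD100 and 17.8, 16.6, 18.4, 16.5 and 21.2 CPM at GD124 (log2 change -1.71 ± 0.27, edgeR adjusted p = 0.00039). SLC6A9†, the glycine carrier that feeds haem synthesis in red cell precursors, fell from 77.4 ± 18.6 to 20.8 ± 7.07 CPM. In all 8 of 31 transporters rose and 6 fell, against 16.6% and 17.4% of all tested genes. There were 5 up and 4 down without GD100 replicates 2 and 3. Their median log2 change was -0.08, and 0.11 with GD100 replicate 1 alone. Under total-count scaling 5 rose and 7 fell, so the balance of the list depends on the scaling.

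**Figure D4:**
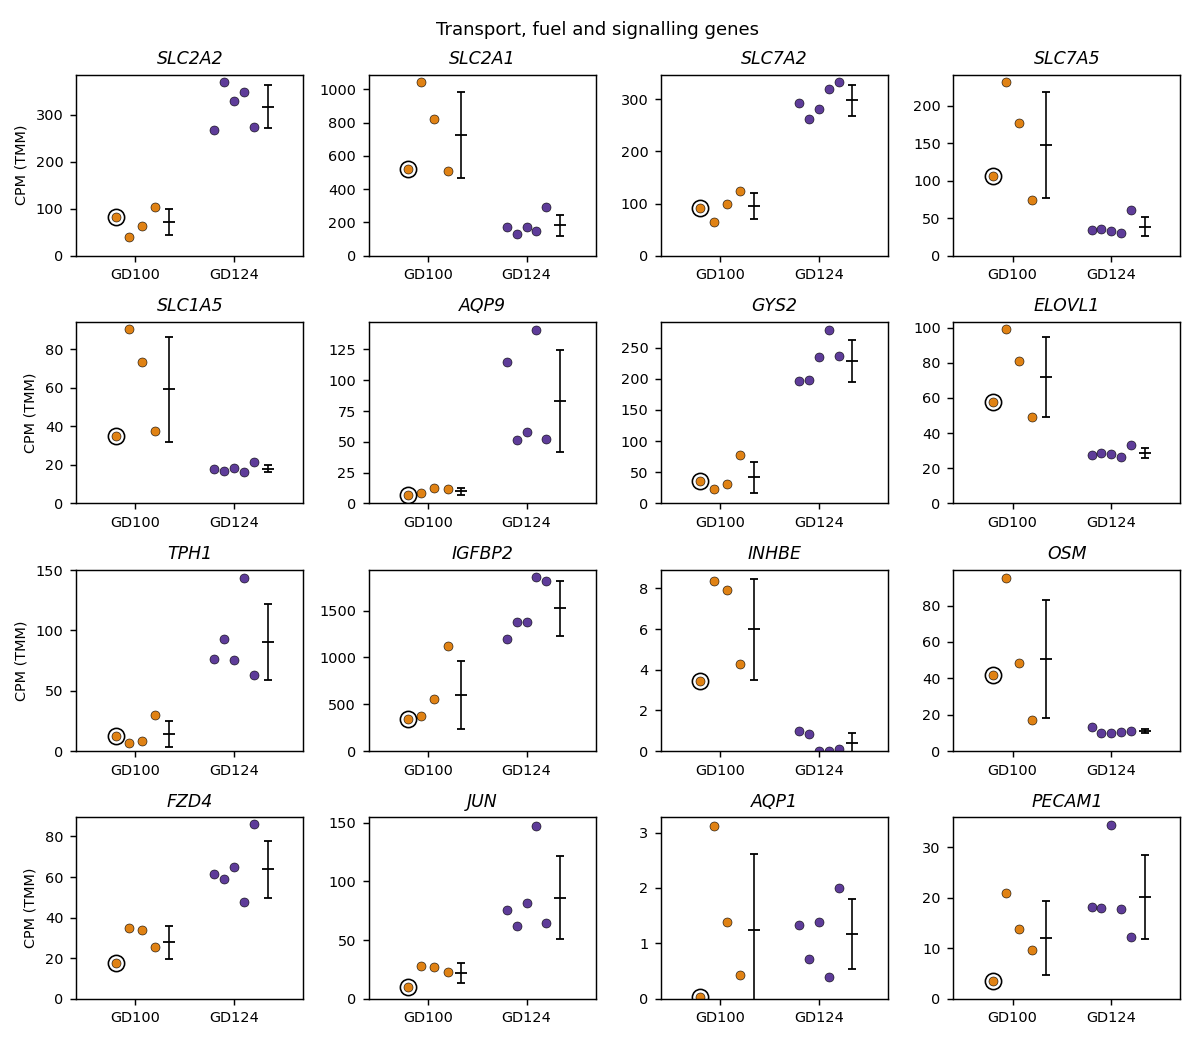
CPM of 16 transport, fuel and signalling genes in each GD100 (orange) and GD124 (purple) library, with the mean and SD as a black bar and GD100 replicate 1 circled. The stages are separate for all genes shown except AQP1 and PECAM1, in which GD100 replicate 1 is the lowest library.

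Enzymes of one-carbon and methyl group metabolism had 8 of 37 members higher, near the 16.6% of all tested genes, and 2 lower (5 up and 1 down with GD100 replicate 1 alone, 5 up and 1 down without GD100 replicates 2 and 3). BHMT†, which remethylates homocysteine with betaine, rose from 86.1 ± 47.7 to 200.4 ± 17.6 CPM (log2 change 1.22 ± 0.26, edgeR adjusted p = 0.0024). GATM, the first enzyme of creatine synthesis, rose from 831 ± 375 to 1776 ± 273 CPM. The falls were PSPH, the last step of serine synthesis (-1.02), and MTHFD2‡, the mitochondrial folate enzyme of proliferating cells (-1.31). PHGDH, the first step of serine synthesis, went from 82.7 ± 3.66 to 84.8 ± 6.75 CPM and was not called.

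AQP9, the channel through which hepatocytes take up glycerol, showed the largest rise among the genes named by size. It stood at 6.54, 8.49, 12.7 and 11.3 CPM at GD100 and 114, 51.1, 57.6, 140.4 and 52.7 CPM at GD124. The lowest GD124 library was above the highest GD100 library (log2 change 3.09 ± 0.33, edgeR adjusted p = 8.5e-05, 3.67 with GD100 replicate 1 alone). Bile acid carriers rose on both faces of the hepatocyte: SLC10A1†, the sinusoidal importer, went from 19.1 ± 13.2 to 131 ± 16.6 CPM and ABCB11†, the canalicular exporter, from 98.8 ± 33.3 to 240.4 ± 28.5 CPM. Among organic cation transporters SLC22A5†‡ fell (log2 change -1.54), as did SLC22A3‡, whose values were 0.505, 3.70, 4.59 and 8.10 CPM at GD100 and 0.0632, 0.252, 0.235, 0.294 and 0.213 CPM at GD124. GD100 replicate 1 was the GD100 library nearest to GD124 for SLC22A3, with a log2 change of -1.25 alone (edgeR adjusted p = 0.35) against -4.30 in the fit of all libraries.

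Of 30 genes that handle vitamins 11 rose and 0 fell in the fit of all libraries (5 up and 0 down without GD100 replicates 2 and 3). Their median log2 change was 0.39, and 0.62 with GD100 replicate 1 alone. Some settings did call members lower. Total-count scaling gave 8 up and 3 down, and DESeq2 12 up and 2 down. Leaving out GD100 replicate 1 gave 11 up and 3 down, and leaving out GD100 replicate 4 gave 13 up and 1 down. GGCX, the vitamin K-dependent carboxylase that completes clotting factors, rose from 217 ± 76.4 to 465 ± 61.8 CPM, and RBP4†, the plasma carrier of retinol, from 925 ± 496 to 2471 ± 549 CPM. In the list of haem and iron-sulphur cluster genes 16 of 30 fell and 4 rose (1 up and 3 down with GD100 replicate 1 alone, 1 up and 5 down without GD100 replicates 2 and 3). The members that rose were HMOX1‡ and HMOX2, which break haem down, and NFS1‡ and NFU1‡, of iron-sulphur cluster making. The falls included CPOX‡ (-1.49) and FECH‡ (-1.27), the last enzyme, and the erythroid sums given above are lower at GD124 too. FECH is itself counted in those sums, as is TFRC. TFRC‡, the transferrin receptor, fell from 749 ± 278 to 295 ± 66.2 CPM, and SLC40A1, the iron exporter ferroportin, rose from 271 ± 80.7 to 475 ± 44.3 CPM. HAMP, hepcidin, which closes ferroportin and was named after its values were seen, stood at 2.65, 0.838, 1.64 and 6.73 CPM at GD100 and 3.98, 3.46, 5.81, 4.76 and 4.61 CPM at GD124. The stages overlap (log2 change 0.61 ± 0.54, edgeR adjusted p = 0.4).

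Detoxifying enzymes rose more often than they fell, 22 against 4 of 52 conjugating enzymes and esterases (10 up and 4 down with GD100 replicate 1 alone, 8 up and 2 down without GD100 replicates 2 and 3). ALDH6A1†, of valine and thymine breakdown, rose from 163 ± 43.0 to 443 ± 34.9 CPM, and EPHX1, microsomal epoxide hydrolase, from 264 ± 86.0 to 481 ± 20.8 CPM. SELENOP, the plasma carrier of selenium, stood at 364, 517, 496 and 1054 CPM at GD100 and 1477, 1717, 1875, 1866 and 1360 CPM at GD124. GD100 replicate 4 was the highest GD100 library and still under all of GD124 (log2 change 1.45 ± 0.29, edgeR adjusted p = 0.0015). GPX1‡, the cytosolic glutathione peroxidase, stood at 948, 1871, 1586 and 615 CPM at GD100 and 517, 446, 368, 269.8 and 503 CPM at GD124 (log2 change -1.58 ± 0.38, edgeR adjusted p = 0.0053), and PRDX2‡, a peroxiredoxin abundant in red cells, fell from 679 ± 311 to 287 ± 47.1 CPM. With GD100 replicate 1 alone these 2 changed by -1.17 and -0.37, with edgeR adjusted p of 0.15 and 0.54.

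Hormones and signals made by the liver had 22 of 43 members higher and 1 lower (median 0.73; 12 up and 1 down with GD100 replicate 1 alone, 11 up and 0 down without GD100 replicates 2 and 3). INHBE‡, the inhibin beta E chain secreted by hepatocytes, was the member that fell in the fit of all libraries, and stood at 3.44, 8.35, 7.90 and 4.26 CPM at GD100 and 1.01, 0.828, 0, 0 and 0.0854 CPM at GD124. In 3 of the 5 GD124 libraries it lay below the floor of 3 counts (log2 change -3.93 ± 0.95, edgeR adjusted p = 0.0058), and the call was lost with GD100 replicate 1 alone (edgeR adjusted p = 0.17). The member called lower in that fit was THPO, thrombopoietin, at -0.90 against -0.09 with all libraries. IGFBP2, which binds the insulin-like growth factors in plasma, stood at 341, 369.8, 558 and 1126 CPM at GD100 and 1194, 1382, 1378, 1853 and 1815 CPM at GD124. The highest GD100 library nearly reached the lowest GD124 library (log2 change 1.35 ± 0.36, edgeR adjusted p = 0.009). IGFBP4 rose from 510.4 ± 142 to 1019 ± 94.6 CPM and IGF2‡, the fetal growth factor itself, from 4977 ± 1414 to 8091 ± 1142 CPM. The call of IGF2 (edgeR adjusted p = 0.038) was lost in 13 of 20 alternatives. AGT, angiotensinogen, rose from 1834 ± 1094 to 3757 ± 780.1 CPM. TPH1, the first enzyme of serotonin synthesis, stood at 12.2, 6.50, 8.30 and 30.0 CPM at GD100 and 76.5, 92.9, 75.3, 143 and 63.3 CPM at GD124 and did not overlap between stages (log2 change 2.67 ± 0.51, edgeR adjusted p = 0.0015).

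Handling of thyroid and steroid hormones moved one way among the called genes but for 1: 15 of 30 rose and 1 fell (median 0.84; 7 up and 0 down with GD100 replicate 1 alone, 9 up and 0 down without GD100 replicates 2 and 3). PGRMC1, a membrane haem protein that binds progesterone, stood at 128, 114, 136 and 333 CPM at GD100 and 542, 593, 504, 530.1 and 426 CPM at GD124. GD100 replicate 4 stood above the other GD100 libraries and under all of GD124 (log2 change 1.55 ± 0.26, edgeR adjusted p = 0.00055). DIO1‡, which activates thyroxine, rose from 113 ± 49.0 to 212 ± 44.8 CPM, and NR3C1‡, the glucocorticoid receptor, from 46.5 ± 7.75 to 69.3 ± 8.89 CPM. FKBP5†‡, a cochaperone of that receptor and one of its known target genes, fell from 57.5 ± 27.5 to 24.6 ± 6.58 CPM (log2 change -1.23 ± 0.42, edgeR adjusted p = 0.034). Its change was -0.47 with GD100 replicate 1 alone, and its call was lost in 10 of 19 alternatives. In the insulin and glucagon list 10 rose and 8 fell of 41, against 16.6% and 17.4% of all tested genes, an order that other scalings turned round. There were 3 up and 2 down without GD100 replicates 2 and 3, against 7.14% and 7.03% of all genes. The median log2 change of the list was -0.11, and 0.07 with GD100 replicate 1 alone. INSR‡, the insulin receptor, rose by a log2 change of 0.76, GCGR‡, the glucagon receptor, by 0.81, and FOXO3‡ changed by -1.02.

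Transcription factors of the hepatocyte rose in 18 of 34 cases and fell in 1 (median 0.59; 8 up and 0 down with GD100 replicate 1 alone, 7 up and 0 down without GD100 replicates 2 and 3). PROX1, needed for hepatocyte growth and migration in the embryo, stood at 38.4, 34.8, 43.1 and 60.7 CPM at GD100 and 83.6, 68.8, 82.7, 66.1 and 78.2 CPM at GD124. The stages are apart by a narrow margin (log2 change 0.78 ± 0.16, edgeR adjusted p = 0.0017). HLF, a clock-controlled factor, rose from 6.89 ± 0.806 to 13.5 ± 2.20 CPM (log2 change 0.97 ± 0.17, edgeR adjusted p = 0.00065), and HNF4A†‡, a master regulator of hepatocytes, from 114 ± 23.1 to 201 ± 40.8 CPM. The rise of ONECUT2†‡ is doubtful. Its values were 83.1, 22.1, 14.8 and 25.3 CPM at GD100 and 129, 108, 139, 123 and 149 CPM at GD124, and it is 1 of the 5 genes that stood low in GD100 replicates 2 to 4, with a log2 change of 1.83 in the fit of all libraries and 0.64 with replicate 1 alone (edgeR adjusted p = 0.058). Of 23 clock genes 10 rose and 1 fell (6 up and 1 down with GD100 replicate 1 alone, 6 up and 1 down without GD100 replicates 2 and 3). RORA, an activator of the clock loop, stood at 8.97, 8.17, 9.50 and 10.01 CPM at GD100 and 22.6, 17.9, 20.2, 18.2 and 23.9 CPM at GD124 (log2 change 1.17 ± 0.17, edgeR adjusted p = 0.00023). The time of day of sampling is not given in the labels.

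Factors of early development fell more often than they rose, 20 of 64 tested against 6 that rose (4 up and 9 down with GD100 replicate 1 alone, 1 up and 7 down without GD100 replicates 2 and 3). HMGA1, an architectural chromatin protein of embryonic cells, stood at 197, 296, 316 and 180.3 CPM at GD100 and 83.7, 86.2, 65.1, 60.6 and 107 CPM at GD124. All GD124 libraries were below all GD100 libraries (log2 change -1.62 ± 0.27, edgeR adjusted p = 0.00048). PLAGL1†, an imprinted zinc finger gene, fell from 388 ± 109 to 120.4 ± 23.7 CPM, and LMO2, a cofactor of blood development, from 136 ± 49.7 to 48.0 ± 8.97 CPM. IGF2BP2, an RNA-binding protein of fetal tissues, stood at 20.1, 21.3, 19.2 and 13.9 CPM at GD100 and 11.7, 11.4, 9.50, 9.39 and 8.92 CPM at GD124 (log2 change -0.87 ± 0.17, edgeR adjusted p = 0.0014). IGF2BP3‡ fell by a log2 change of -0.62, and IGF2BP1 differed by -0.15 (edgeR adjusted p = 0.64). Of 262 zinc finger genes 36 rose and 35 fell, both below the shares of all genes (15 up and 28 down with GD100 replicate 1 alone, 20 up and 15 down without GD100 replicates 2 and 3). The falls with GD100 replicate 1 alone were above the 8.57% of all genes, total-count scaling gave 18 up and 57 down, and which count was larger changed with the setting.

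Wnt signalling genes had 11 of 39 higher and 4 lower (10 up and 2 down with GD100 replicate 1 alone, 8 up and 1 down without GD100 replicates 2 and 3). FZD4, a Wnt receptor, stood at 17.5, 34.7, 33.9 and 25.4 CPM at GD100 and 61.4, 59.0, 65.1, 47.5 and 85.9 CPM at GD124. GD124 replicate 5 was highest and GD100 replicate 1 lowest (log2 change 1.20 ± 0.20, edgeR adjusted p = 0.00047). LGR4, a receptor for R-spondins, rose from 33.4 ± 13.4 to 68.2 ± 9.33 CPM (log2 change 1.03 ± 0.21, edgeR adjusted p = 0.0016), while LGR5†‡, its relative in stem cells and the hepatocytes around central veins, fell from 3.98 ± 0.607 to 1.62 ± 0.479 CPM (log2 change -1.29 ± 0.31, edgeR adjusted p = 0.0048). AXIN2†, a target gene of the pathway, went from 5.36 ± 0.475 to 5.28 ± 2.41 CPM and was not called. SFRP5‡, a secreted Wnt inhibitor, stood at 5.05, 24.6, 26.8 and 7.20 CPM at GD100 and 2.72, 3.53, 2.79, 3.56 and 4.44 CPM at GD124. GD100 replicates 2 and 3 alone were far above the rest, and the log2 change of -2.22 became -0.57 with GD100 replicate 1 alone (edgeR adjusted p = 0.49).

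Of 45 genes of the Notch, Hedgehog and Hippo pathways 10 rose and 3 fell, against 16.6% and 17.4% of all tested genes. Without GD100 replicates 2 and 3 there were 4 up and 3 down. Their median log2 change was 0.16, and -0.04 with GD100 replicate 1 alone. In the Hippo pathway, which limits liver size, STK3, the upstream kinase, stood at 15.7, 12.99, 13.1 and 18.7 CPM at GD100 and 37.1, 39.7, 35.9, 34.2 and 29.7 CPM at GD124 (log2 change 1.22 ± 0.15, edgeR adjusted p = 0.0001). YAP1†, the coactivator that the pathway restrains, stood at 31.5, 29.4, 25.4 and 33.0 CPM at GD100 and 62.9, 54.7, 64.5, 61.0 and 52.2 CPM at GD124. Both were higher in every GD124 library, and the SE of YAP1 was small (log2 change 0.99 ± 0.11, edgeR adjusted p = 9.2e-05). Of 39 genes of the TGF-beta and BMP pathway 13 rose and 2 fell (12 up and 4 down with GD100 replicate 1 alone, 8 up and 0 down without GD100 replicates 2 and 3), among them ID2, from 26.3 ± 11.5 to 55.9 ± 5.57 CPM. Of 38 heat shock and early response genes 9 rose and 5 fell, against 16.6% and 17.4% of all tested genes. There were 4 up and 1 down without GD100 replicates 2 and 3. Their median log2 change was 0.36, and 0.62 with GD100 replicate 1 alone. Among the rises, JUN stood at 10.1, 28.0, 27.1 and 23.2 CPM at GD100 and 75.8, 61.9, 81.5, 148 and 64.3 CPM at GD124 (log2 change 1.97 ± 0.40, edgeR adjusted p = 0.002), FOS‡ at 2.69, 2.13, 6.12 and 7.20 CPM at GD100 and 23.7, 11.8, 12.5, 31.7 and 17.9 CPM at GD124 (log2 change 2.11 ± 0.62, edgeR adjusted p = 0.018), and ZFP36, which destabilises cytokine mRNAs, at 1.86, 3.53, 5.39 and 4.93 CPM at GD100 and 25.5, 13.9, 12.7, 34.6 and 21.6 CPM at GD124 (log2 change 2.47 ± 0.49, edgeR adjusted p = 0.002). GD124 replicate 4 was the highest library for all of them.

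Genes of adhesion between epithelial cells rose more often than they fell. Of 48 genes of junctions and polarity 26 were higher and 7 lower (median 0.52; 15 up and 6 down with GD100 replicate 1 alone, 11 up and 5 down without GD100 replicates 2 and 3). CLDN1, a tight junction protein, stood at 0.253, 2.06, 0.874 and 2.62 CPM at GD100 and 8.31, 7.89, 12.8, 3.20 and 4.14 CPM at GD124. GD100 replicate 1 was lowest (log2 change 2.33 ± 0.53, edgeR adjusted p = 0.004). CDH1†‡, E-cadherin, rose from 115 ± 55.2 to 262 ± 43.4 CPM, GJB1†, the gap junction protein of hepatocytes, from 129.5 ± 59.0 to 253 ± 23.2 CPM, and KRT8, a keratin of simple epithelia, from 137 ± 65.1 to 268 ± 58.0 CPM. STK11†, the polarity kinase LKB1, and EZR‡, ezrin, fell by log2 changes of -0.79 and -0.97, and EZR changed by -0.11 with GD100 replicate 1 alone. FN1, fibronectin, which hepatocytes secrete into plasma and matrix, rose from 568 ± 264 to 1673 ± 223 CPM (log2 change 1.56 ± 0.25, edgeR adjusted p = 0.00045). COL1A1†, the main collagen of fibroblasts, went from 287 ± 68.6 to 328 ± 42.9 CPM (edgeR adjusted p = 0.49). COL3A1‡, another collagen, rose from 276 ± 60.1 to 452 ± 44.7 CPM (log2 change 0.71 ± 0.19, edgeR adjusted p = 0.010). Of 67 stellate cell, pericyte and matrix genes 11 rose, near the 16.6% of all tested genes, and 2 fell. Leaving out GD100 replicates 2 and 3 gave 14 up and 2 down, against 7.14% and 7.03% of all genes.

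Of 31 resident macrophage genes 15 rose and 1 fell (6 up and 0 down with GD100 replicate 1 alone, 4 up and 0 down without GD100 replicates 2 and 3), with sums of 872, 540.1, 628 and 1204 at GD100 and 1223, 1592, 1719, 1248 and 1311 at GD124 CPM. MARCO, a scavenger receptor, stood at 3.60, 5.00, 4.55 and 9.74 CPM at GD100 and 15.7, 17.2, 34.1, 17.5 and 10.6 CPM at GD124 (log2 change 1.74 ± 0.38, edgeR adjusted p = 0.0031), and C1QA‡, a complement subunit that macrophages make, rose from 40.8 ± 27.3 to 88.8 ± 18.8 CPM. VSIG4‡ was the exception, at 0.853, 3.49, 4.37 and 5.01 CPM at GD100 and 1.83, 1.84, 2.01, 1.04 and 1.07 CPM at GD124. GD100 replicate 1 lay below all GD124 libraries and the other 3 GD100 libraries above all of them, so the direction of VSIG4 turns with replicate 1 alone (-1.13 against 0.87). Endothelial genes had 12 of 47 up and 2 down (13 up and 1 down with GD100 replicate 1 alone, 13 up and 0 down without GD100 replicates 2 and 3). PECAM1†, a marker of all endothelium, stood at 3.57, 20.9, 13.9 and 9.62 CPM at GD100 and 18.2, 18.0, 34.4, 17.9 and 12.3 CPM at GD124, and AQP1, a water channel, at 0.0316, 3.11, 1.38 and 0.43 CPM at GD100 and 1.33, 0.72, 1.38, 0.392 and 2.01 CPM at GD124. In both GD100 replicate 1 is far below the other libraries, and the change of 0.75 in PECAM1 became 2.49 with it alone. For AQP1 that library lies below its floor of 3 counts, so the change fitted with it alone has no fixed size.

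Lymphoid genes were low at both stages, and the tested members summed to 31.5, 21.6, 28.4 and 37.0 at GD100 and 34.6, 30.0, 34.2, 31.5 and 28.3 at GD124 CPM. Among the 36 members with a row, GZMK, VPREB3 and TNFRSF17 had no count in any GD124 library, CD28 had none in either stage, and 23 were tested (1 rose and 2 fell, 0 up and 2 down with GD100 replicate 1 alone, 0 up and 1 down without GD100 replicates 2 and 3). CD79A, of the B cell receptor, stood at 2.87, 1.26, 3.10 and 3.21 CPM at GD100 and 0.853, 0.396, 0.974, 0.816 and 0.64 CPM at GD124 (log2 change -1.82 ± 0.35, edgeR adjusted p = 0.0013), and CD79B, its partner, fell from 1.14 ± 0.605 to 0.231 ± 0.0438 CPM. CD8A‡, of cytotoxic T cells, rose from 1.42 ± 1.08 to 4.05 ± 0.832 CPM. Interferon-induced genes had 9 of 32 lower and 2 higher (1 up and 0 down with GD100 replicate 1 alone, 0 up and 0 down without GD100 replicates 2 and 3). ISG15‡, a ubiquitin-like protein, stood at 102, 229, 199 and 95.5 CPM at GD100 and 16.5, 38.3, 19.3, 21.4 and 35.3 CPM at GD124 (log2 change -2.58 ± 0.58, edgeR adjusted p = 0.004), and with GD100 replicate 1 alone the change was -1.97 (adjusted p = 0.15). CCL16, a chemokine made by hepatocytes, rose from 436 ± 208 to 1078 ± 122 CPM.

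Of 760 rises and 783 falls that met the conditions for naming by size (called, at least 10 CPM in the higher stage, stages not overlapping, no overlapping gene, the same sign with GD100 replicate 1 alone), the 12 largest each way are drawn by library. Several of the falls belong to platelets and red cells: TREML1‡, a receptor of platelet granules, stood at 17.5, 19.1, 19.1 and 16.1 CPM at GD100 and 2.37, 2.70, 3.19, 0.913 and 3.67 CPM at GD124 (log2 change -2.81 ± 0.65, edgeR adjusted p = 0.0048), and ITGA2B, the platelet fibrinogen receptor chain, at 59.6, 37.8, 46.0 and 34.6 CPM at GD100 and 7.27, 11.7, 8.63, 7.76 and 14.9 CPM at GD124 (log2 change -2.15 ± 0.30, edgeR adjusted p = 0.0002). EPOR‡, the erythropoietin receptor, fell from 79.5 ± 23.98 to 16.7 ± 5.55 CPM. TREML1 and EPOR, with GD100 replicate 1 alone, changed by -2.77 and -2.03, with edgeR adjusted p of 0.094 and 0.11. Those of platelets lie within the fall of the platelet list, with 13 of 21 lower and 0 higher (0 up and 5 down with GD100 replicate 1 alone, 0 up and 6 down without GD100 replicates 2 and 3). OSM, oncostatin M, a cytokine of blood cells that matures fetal hepatocytes, stood at 41.7, 95.3, 48.4 and 17.4 CPM at GD100 and 12.99, 9.94, 10.2, 10.6 and 11.1 CPM at GD124. GD124 libraries were low and alike (log2 change -2.21 ± 0.38, edgeR adjusted p = 0.00072). ITPR3, a calcium release channel, stood at 29.5, 19.1, 33.1 and 17.2 CPM at GD100 and 5.12, 5.26, 5.57, 5.25 and 8.19 CPM at GD124 (log2 change -2.07 ± 0.24, edgeR adjusted p = 9.2e-05), with -2.33 for GD100 replicate 1 alone.

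**Figure D5:**
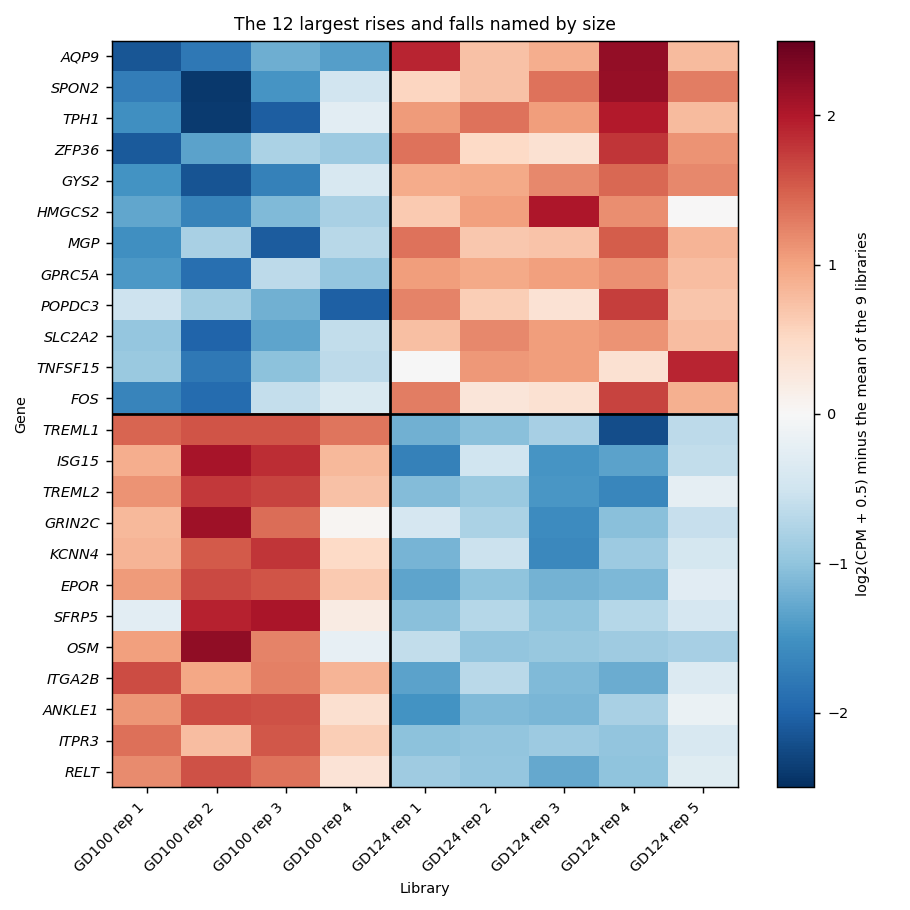
Heat map of the 12 largest rises and 12 largest falls named by size, as log2(CPM + 0.5) minus the mean of the 9 libraries, with genes in rows and libraries in columns. Red is above and blue below that mean, and the vertical line parts GD100 from GD124. AQP9 heads the rises and TREML1 the falls.

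Among the rises without a theme of their own, SPON2, a secreted matrix protein, stood at 33.5, 20.7, 39.7 and 80.3 CPM at GD100 and 163, 185, 285, 505 and 273 CPM at GD124 (log2 change 2.70 ± 0.41, edgeR adjusted p = 0.00038). MGP, an inhibitor of calcification, stood at 15.2, 25.7, 10.3 and 27.8 CPM at GD100 and 117, 72.8, 74.0, 131 and 81.3 CPM at GD124 (log2 change 2.27 ± 0.32, edgeR adjusted p = 0.00021). GPRC5A, an orphan receptor induced by retinoic acid, stood at 3.98, 2.79, 7.25 and 5.67 CPM at GD100 and 24.6, 22.8, 24.3, 26.5 and 20.3 CPM at GD124, with the GD124 libraries close together (log2 change 2.27 ± 0.27, edgeR adjusted p = 0.0001). POPDC3‡, of the Popeye family of cyclic AMP-binding proteins, rose from 2.97 ± 1.39 to 14.1 ± 6.05 CPM, and TNFSF15‡, a cytokine of the tumour necrosis factor family, from 8.70 ± 2.72 to 38.2 ± 20.1 CPM. The other falls were TREML2 (-2.45), GRIN2C‡ (-2.36), KCNN4 (-2.36), a calcium-activated potassium channel of red cells, ANKLE1‡ (-2.14) and RELT‡ (-2.05). Of these, GRIN2C, ANKLE1 and RELT with GD100 replicate 1 alone kept their sign but not their call (edgeR adjusted p = 0.077, 0.3 and 0.12), and ANKLE1 lost it in 11 of 20 alternatives.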

How the data were processed

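The deposited table holds the authors' estimated counts of reads per gene, not normalised. The submitters' processing notes name DRAGEN, which maps and counts reads. Not given in the sources used here are its version, the build, the annotation and whether strand was used. Of these values 6.55% were fractional. Rounding each to a whole number moved library totals by at most 27.86 counts. All 31411 rows name a gene. Gene overlaps and biotypes come from RefSeq (assembly ARS-UI_Ramb_v3.0), where 28863 names matched a symbol.

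The 15 libraries were fitted together with edgeR 4.0.16 in R 4.3.3 (quasi-likelihood F-test, TMM, filterByExpr, robust estimation, a term per stage), and GD124 was compared with GD100 with Benjamini-Hochberg adjustment over 16977 genes at a threshold of 0.05. The SE of a log2 change is its size divided by the square root of F. The biological coefficient of variation was 34%. DESeq2 1.42.0 was an alternative, beside other scalings, filters, a replicate block, single libraries left out, GD100 replicate 1 alone, and genes with no overlapping gene. Leaving out GD100 replicates 2 and 3 was added after seeing their marker levels. Low-count precision is limited to the floor of 3 counts.

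Lists were described by counts of called members, with no test of their own. Genes named are the 12 largest changes each way under the conditions given in the text, 105 tested genes of a list of 120, and up to 4 called members per list and direction with the highest mean CPM. HAMP and the lymphoid genes without counts were chosen after their values were seen. Members and lists were chosen with earlier results of these data known. A few genes are not reported here.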

Additional observations from a re-analysis of the deposited data

Results flagged for a closer look

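For each of 163 genes named above, COL3A1 not among them, the highest and lowest library of each stage were compared with the rest. The measure was the gap to the nearest other library of that stage relative to the range. Of 326 groups 22 were marked as holding a library far from the others, where chance marks about 1 in 20 groups.

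GD124 replicate 5, which has the highest erythroid sum of its stage, was the highest GD124 library for EPOR (26.4 CPM, others 12.7 to 15.8), SLC2A1 (294 CPM, others 129.5 to 174), SLC6A9 (33.3 CPM, others 16.5 to 19.0), TFRC (414 CPM, others 259 to 273) and SLC7A5 (61.0 CPM, others 30.5 to 36.4). The same library was highest for LMO2 (63.5 CPM, others 40.2 to 46.3), FOXO3 (151 CPM, others 103 to 115) and ITPR3 (8.19 CPM, others 5.12 to 5.57). It was lowest for P4HB (1022 CPM, others 1253 to 1288) and TMED10 (254 CPM, others 329 to 354). The part of cell composition in these values was not tested. TFRC is itself counted in the erythroid sum, so its level and that sum are not independent.

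GD100 replicate 4, which has the highest hepatocyte sum of its stage, was the highest GD100 library for AGT (3461 CPM, others 1174 to 1488), PGRMC1 (333 CPM, others 114.5 to 135.5), KRT8 (233.5 CPM, others 97.9 to 116) and ALDH6A1 (227 CPM, others 139 to 144). GD100 replicate 1 was highest for ONECUT2 (83.1 CPM, others 14.8 to 25.3), RPL4 (1709 CPM, others 1033 to 1103) and FASN (141.5 CPM, others 109.8 to 112). ONECUT2 overlaps another gene and is 1 of the 5 genes that stood low in GD100 replicates 2 to 4.

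Single values stood apart in SCD in GD100 replicate 2 (71.4 CPM, others 6.25 to 17.2), FASN in GD124 replicate 1 (95.1 CPM, others 51.0 to 60.5) and JUN in GD124 replicate 4 (148 CPM, others 61.9 to 81.5). The remaining values were PECAM1 in GD124 replicate 3 (34.4 CPM, others 12.3 to 18.2) and RBP4 in GD124 replicate 4 (3433 CPM, others 2124 to 2403).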

How the results depend on the processing

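The number of called genes, 5774, stayed within 1.5 times under RLE factors, total counts, TMM without the 20 most abundant genes, both filters, DESeq2 (6430), the 9 libraries alone (5160) and each single library left out (4169 to 6234, with 1867 to 2957 higher and 2302 to 3277 lower). Without GD100 replicate 3 alone the count of higher genes, 2825, moved to 1867. Total-count scaling gave 1805 higher. GD100 replicate 1 alone gave 3167 calls, 1575 higher and 1592 lower, and leaving out GD100 replicates 2 and 3 gave 2493, with 1256 higher and 1237 lower; fewer libraries enter both. Genes without an overlapping gene, of which 9961 were tested, gave 3425, with 1694 higher and 1731 lower.

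Replicate numbers are shared between stages, but same-numbered libraries did not deviate together (correlations -0.09, -0.08, -0.03 and 0.06). The labels do not say what the numbers stand for, and these correlations cannot show that nothing else is shared. With the replicate block 4544 genes were called, 2305 higher and 2239 lower.

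Of 163 genes named above and tested, COL3A1 not among them, 152 were called, and 69 kept their call under every alternative that tested them. With GD100 replicate 1 alone 65 lost it with the same sign, and 65 without GD100 replicates 2 and 3. The direction of VSIG4 turned to 0.87 with GD100 replicate 1 alone. The other genes that turned were not called in the fit of all libraries: AQP1 (5.03 with GD100 replicate 1 alone, where it was called and that library is below its floor, 2.37 without GD100 replicates 2 and 3, 0.88 without GD100 replicate 2, 0.04 and 0.13 without GD124 replicates 2 and 4, 0.06 with the block), SCD (1.17 with GD100 replicate 1 alone, 1.07 without GD100 replicates 2 and 3, 0.44 without GD100 replicate 2) and AXIN2 (0.14 without GD124 replicate 1 or 2). PHGDH moved to -0.14 with total counts, to -0.01 with RLE factors, DESeq2, TMM without the 20 most abundant genes or without GD100 replicate 2, and to 0 without GD124 replicate 2 or GD100 replicates 2 and 3. COL1A1 moved to 0 and HAMP to -0.04 without GD100 replicates 2 and 3, and IGF2BP1 to 0 without GD100 replicate 4. The cause was not tested. Over single libraries left out, AQP1 ran from -0.50 to 0.88, SCD from -1.18 to 0.44, AXIN2 from -0.22 to 0.14, THPO from -0.31 to 0.32 (0.32 without GD100 replicate 1) and IGF2BP1 from -0.30 to 0. Depth limits genes near 0.128 CPM.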

Other observations

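Among symbol families not described above, 10 of 15 genes whose symbol begins with TM and a digit were higher and 0 lower, and 9 of 23 ARL genes, small GTPases of membrane traffic, were higher and 1 lower. Of 62 RAB genes, which direct vesicles, 20 were higher and 11 lower. Of 17 TSPAN genes 6 were higher and 1 lower, and of 17 PEX genes, which build peroxisomes, 6 were higher and 1 lower. Genes of RNA helicases beginning with DDX had 12 of 32 members lower and 3 higher, and 6 of 16 INTS genes, of the Integrator complex, were lower and 0 higher. With GD100 replicate 1 alone the TM genes had 5 higher and 0 lower, ARL 6 and 1, RAB 11 and 3, TSPAN 3 and 0, PEX 4 and 0, DDX 0 and 8, and INTS 0 and 2. These families, and the SEC, NUP, CEP and POLR families above, were picked after their counts were seen. A symbol prefix can join unrelated genes. Over all tested genes 16.6% were called higher and 17.4% lower.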
